A study of Mus musculus with 6 samples.

Results

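The genes described here are 34 protein-coding members of the aldehyde, alcohol and retinol dehydrogenase families, out of 12366 genes listed for mouse liver. They were picked by symbol, with earlier results of these data known. The set holds 15 aldehyde dehydrogenases (Aldh), 4 alcohol dehydrogenases (Adh), 8 retinol dehydrogenases (Rdh) and 7 dehydrogenase/reductases of the short-chain family (Dhrs). RNA was sequenced from livers of Acss2-/- mice (Acss2-KO, 3 libraries) and wild type mice (WT, 3 libraries). All were C57BL/6 males on chow, 22 weeks old and fasted for 48 h, so both genotypes share the fast and no fed group is part of the comparison. How the Acss2 allele was made, and which animal gave which library, is not in the labels. The p-values below set the difference between genotypes against the scatter of these 6 libraries within their genotype. Since the animals behind the libraries are not given, some of that scatter may be technical. The comparison asks which transcripts differ in the fasted liver without Acss2, the enzyme that makes acetyl-CoA from acetate.

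Alcohol dehydrogenases oxidise ethanol and other alcohols to aldehydes, and aldehyde dehydrogenases oxidise those aldehydes to acids, so that ethanol passes through acetaldehyde to acetate, the substrate of Acss2. Retinol follows the same logic: Adh and Rdh enzymes oxidise it to retinaldehyde, enzymes of the Aldh1a group oxidise retinaldehyde to retinoic acid, and several reductases turn retinaldehyde back into retinol. Other aldehyde dehydrogenases each close a step of amino acid, folate or fatty aldehyde breakdown, and hepatocytes express many of them strongly.

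Values are CPM, reads per 1000000 of a library, with the SD over 3 libraries. Changes are log2 fold changes of Acss2-KO over WT on the log2(CPM + 1) scale with their SE, and p-values are limma's, Benjamini-Hochberg adjusted over the 9355 genes whose mean reached 5 CPM (threshold 0.05). Estimated depth was 21.8 to 30.8 M reads per library, so that 5 CPM stood for 109 to 154 reads. Acss2 itself was at 1.37, 3.56 and 2.35 CPM in Acss2-KO libraries 1, 2 and 3, and at 74.0, 81.0 and 73.5 CPM in WT libraries 1, 2 and 3, as the labels say. The 10 hepatocyte markers summed to between 116862 and 126571 CPM in Acss2-KO and between 94559 and 114454 CPM in WT. Alb made up most of that sum, and of the 10, Ass1, Cps1 and Tat rose and Ttr fell. Sums of several other marker lists were lower in Acss2-KO. The 8 Kupffer cell and macrophage markers summed to 63.5 to 133 CPM in Acss2-KO against 167 to 498 CPM in WT. Of the 7 tested, 3 were lower (42.9%, against 23.1% of all genes tested), and Adgre1 among them passed the filter through its WT level. The 5 erythroid markers summed to 41.2 to 67.0 CPM in Acss2-KO against 162 to 280.5 CPM in WT. All 5 were lower (100%, against 23.1% of all genes tested), and Hba-a2 and Hbb-bt passed the filter through their WT level. The 2 listed gut epithelium markers of 4 summed to 88.0 to 184 CPM in Acss2-KO against 223 to 384 CPM in WT. Of these 2, Fabp2 was lower, while Lgals4 overlapped between the groups and did not pass (limma adjusted p = 0.829). For the 2 listed cholangiocyte markers of 6 the sums were 14.0 to 17.3 CPM in Acss2-KO and 32.2 to 37.2 CPM in WT, with Sox9 higher and Spp1 lower. Sox9 passed the filter through its Acss2-KO level alone. For the 3 listed leukocyte markers of 7 they were 2.81 to 5.13 CPM in Acss2-KO and 7.18 to 17.4 CPM in WT. The 7 endothelial markers overlapped, at 297 to 376 CPM in Acss2-KO and 238 to 373 CPM in WT. The 10 stellate cell markers summed to 255 to 420.0 CPM in Acss2-KO and 295 to 436 CPM in WT. Exocrine pancreas transcripts (3 of 4 markers listed) ran from 6.28 to 415 CPM in Acss2-KO, highest in library 1, and from 11.5 to 2308 CPM in WT, highest in library 2. The part of these cells in the values below was not tested. In bulk tissue, fewer cells of a type and less RNA per cell cannot be told apart.

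Dehydrogenase transcripts were lower in Acss2-KO across the 4 families. Of the 31 members that passed the filter, 18 fell and none rose (limma, none higher at an unadjusted p under 0.05 either), where 23.1% of all genes tested fell and 13.4% rose (36.5% in either direction). Their median log2 fold change was -0.79, beside -0.12 over all genes tested, and 27 of 31 were negative. The falls counted 6 of 12 Aldh, 2 of 4 Adh, 5 of 8 Rdh and 5 of 7 Dhrs genes. Of the 31, 19 had all Acss2-KO libraries below all WT libraries (32.8% of all genes tested) and 1, Dhrs13, had them all above (20.1%). Rdh5 and Rdh9 passed the filter through their WT level. The number lower was 16 with median-of-ratios scaling, 16 with upper-quartile scaling and 14 with quantile normalization, which also called Dhrs13 higher. With WT library 2 and Acss2-KO library 1 both left out, 12 were lower. The families differed in these counts, and that difference was not tested.

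Together the 34 members took up less of the liver transcriptome. They summed to 4989, 8125 and 6113 CPM in Acss2-KO libraries 1, 2 and 3, against 12539.9, 12734 and 10112 CPM in WT libraries 1, 2 and 3. The means were 6409 ± 1588 CPM in Acss2-KO and 11795 ± 1461 CPM in WT, so the Acss2-KO sum was 54.3% of the WT sum. By family the Acss2-KO share of the WT sum was 55.6% for Aldh, 45.6% for Adh, 62.1% for Rdh and 47.7% for Dhrs.

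**Figure D1:**
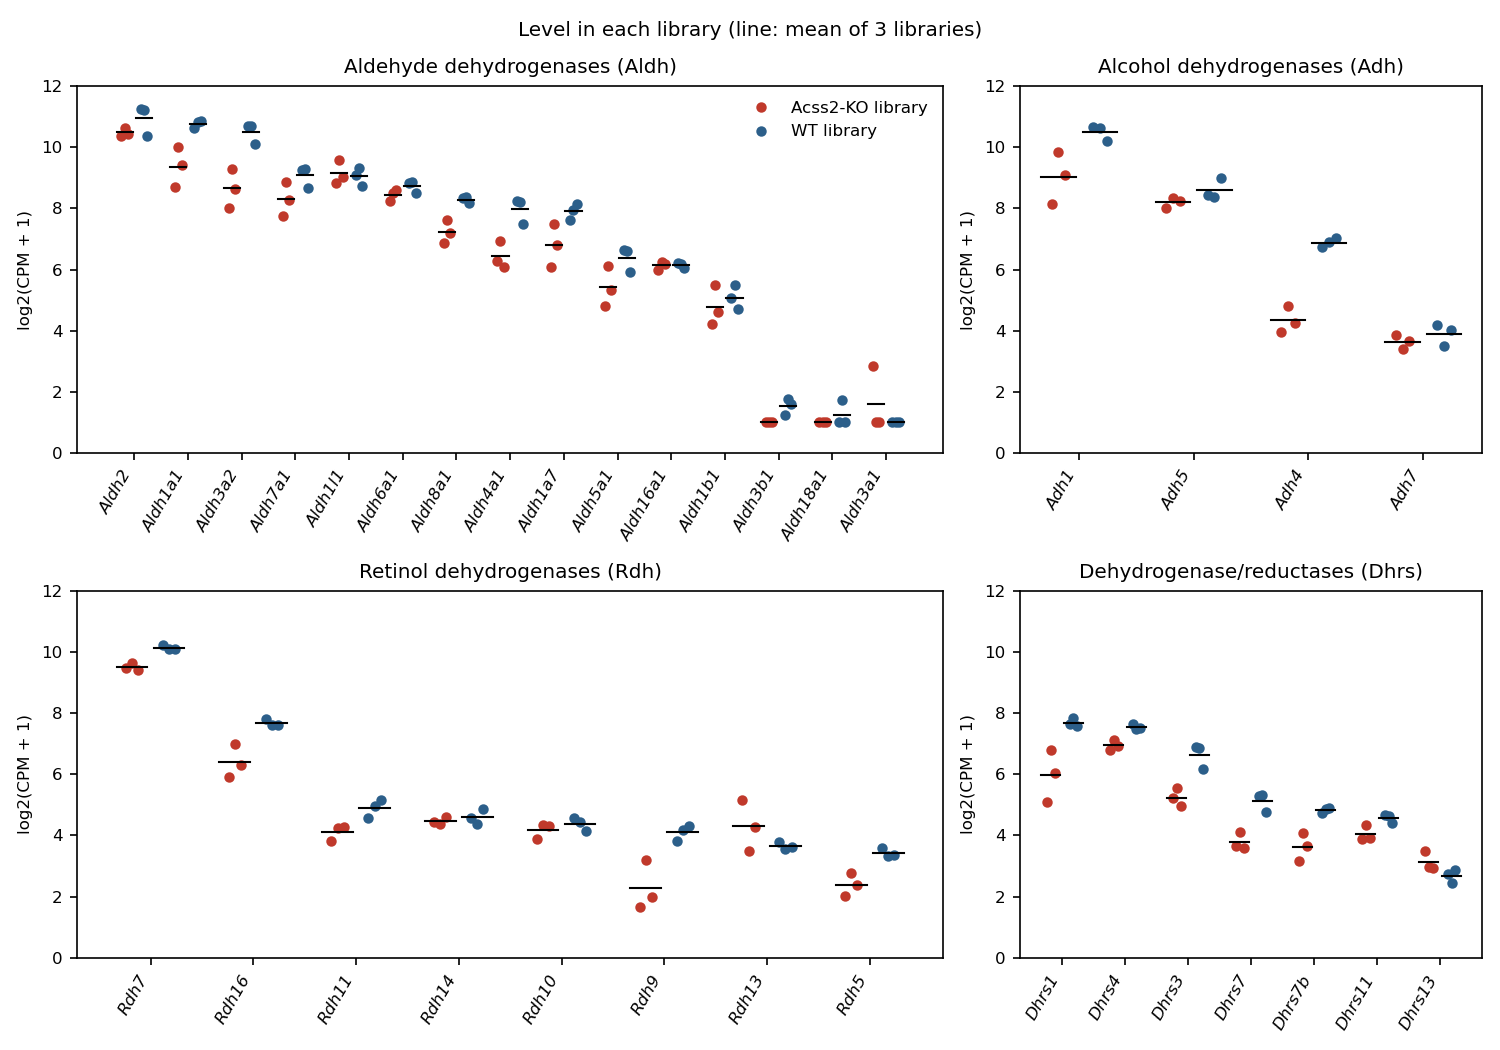
Level of each of the 34 members in each library on a log2(CPM + 1) axis, one panel per family, with Acss2-KO libraries (red) left of WT libraries (blue) and a line at the mean of 3. A value listed at 0 is drawn at 1 CPM, the floor of the table. Adh4 and Aldh3a2 show wide gaps between the genotypes, while Aldh16a1 and Rdh14 overlap.

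Of the 4 alcohol dehydrogenases, Adh4 and Adh1 fell, and Adh5 and Adh7 did not pass, a difference between genes that was not tested. Adh4, the class II enzyme, which oxidises longer alcohols and retinol (chr3:138415466-138430892), was at 14.6, 26.7 and 18 CPM in Acss2-KO libraries 1, 2 and 3, against 105, 118 and 129 CPM in WT libraries 1, 2 and 3. The groups lie far apart, and the fall was 5.84-fold (log2 fold change -2.55, SE 0.22, limma adjusted p = 0.000267). Adh1, the class I enzyme that carries most ethanol oxidation in liver (chr3:138260991-138290698), was at 284, 910.2 and 549 CPM in Acss2-KO libraries 1, 2 and 3, against 1618, 1574 and 1184 CPM in WT libraries 1, 2 and 3. All Acss2-KO values lie below WT, with library 2 nearest, and the log2 fold change was -1.47 (SE 0.38, adjusted p = 0.0188). The Adh1 call was lost without Acss2-KO library 3 (adjusted p = 0.0572) or WT library 1 (0.061), 2 (0.0592) or 3 (0.0506). An antisense transcript, Gm16559, overlaps exons of Adh1, and without a known strand setting their reads cannot be told apart. It was at 1.12, 1.01 and 2.48 CPM in Acss2-KO and 8.17, 2.87 and 8.46 CPM in WT.

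Adh5, the class III enzyme that clears formaldehyde bound to glutathione, was at 256, 322 and 302 CPM in Acss2-KO, against 343, 333 and 512 CPM in WT (log2 fold change -0.41, 95% interval -0.92 to 0.11, adjusted p = 0.185). The groups do not overlap, but 1 WT library stands well above the others. Adh7, the class IV enzyme best known from stomach, averaged 11.6 ± 2.03 CPM in Acss2-KO and 14.3 ± 3.62 CPM in WT, with overlap (adjusted p = 0.381). Esd, the hydrolase that follows Adh5 in formaldehyde breakdown, averaged 112 ± 32.9 CPM in Acss2-KO and 235 ± 48.2 CPM in WT (log2 fold change -1.09, adjusted p = 0.0136, and 0.0526 without WT library 3).

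The promoters of the steepest faller and of its neighbour are shown because both genes lie in 1 cluster and their values differ. They are RefSeq windows on GRCm38.p6, plus strand, from 250 bases before to 50 bases after the start site (Adh4 chr3:138415247-138415546, Adh5 chr3:138442843-138443142). Capitals mark AGGTCA, the half-site of nuclear receptors, and CCAAT, on either strand.
Adh4 promoter: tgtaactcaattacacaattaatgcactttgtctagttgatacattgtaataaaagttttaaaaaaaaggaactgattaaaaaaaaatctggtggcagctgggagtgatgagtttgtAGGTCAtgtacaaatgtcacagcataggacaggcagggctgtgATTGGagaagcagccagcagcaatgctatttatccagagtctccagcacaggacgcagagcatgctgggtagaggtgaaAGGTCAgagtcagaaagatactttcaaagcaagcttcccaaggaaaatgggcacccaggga
Adh5 promoter: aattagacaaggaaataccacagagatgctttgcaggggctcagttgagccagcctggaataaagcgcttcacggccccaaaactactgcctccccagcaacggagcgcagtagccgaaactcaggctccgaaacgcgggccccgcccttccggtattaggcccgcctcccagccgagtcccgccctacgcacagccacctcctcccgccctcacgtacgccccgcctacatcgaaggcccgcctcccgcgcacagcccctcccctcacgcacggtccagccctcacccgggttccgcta
The Adh4 window holds AGGTCA 133 and 11 bases before the start site and a reversed CCAAT 90 bases before it, and the Adh5 window holds none of the 5 motifs searched. Over 278 aligned bases the windows were 50% identical.

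Retinol oxidation is the step of the Rdh group proper. Rdh7, Rdh9 and Rdh16 are closely related microsomal enzymes that oxidise retinol and some hydroxysteroids. Rdh7 (chr10:127884028-127888817) was at 704, 792 and 676 CPM in Acss2-KO libraries 1, 2 and 3, against 1201, 1089.9 and 1098 CPM in WT libraries 1, 2 and 3. Both groups were tight and apart, with a modest log2 fold change of -0.64 (SE 0.19, adjusted p = 0.0267). The Rdh7 call was lost without Acss2-KO library 1 (0.0607) or 3 (0.122), without WT library 1 (0.103) or 2 (0.084), with quantile normalization (0.0656) and under a block on replicate number (0.0509).

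Rdh16 (chr10:127801152-127846565) was at 59.7, 126 and 78.8 CPM in Acss2-KO libraries 1, 2 and 3, against 224, 195 and 194 CPM in WT libraries 1, 2 and 3 (log2 fold change -1.27, SE 0.27, adjusted p = 0.00754). Rdh9 (chr10:127776386-127792697), measured from fewer reads, was at 2.13, 8.11 and 2.93 CPM in Acss2-KO, against 13.3, 17.3 and 19 CPM in WT. In both genes Acss2-KO library 2 was the highest of its group and still below every WT library, and the log2 fold change of Rdh9 was -1.85 (SE 0.37, adjusted p = 0.00746). Their coding sequences were 96.8% identical over 954 aligned bases, and Rdh7 matched them at 87.8% (Rdh16) and 87.2% (Rdh9). Of the 50-base windows of the longest Rdh9 transcript, 29.1% occurred in another gene's transcripts, most of them in Rdh1, against 10.6% for Rdh7 and 4.29% for Rdh16. Exons of Rdh9 also overlap Rdh1, and those of Rdh16 overlap Rdh18-ps, each on the same strand. How the authors' counting split such reads is not given, so the 3 values are uncertain to that degree.

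The Rdh9 and Rdh16 promoters are shown for the extent of that likeness (plus strand, GRCm38.p6, chr10:127776155-127776454 and chr10:127800903-127801202). Capitals mark AGGTCA and CCAAT as above and also TATAAA, the TATA box.
Rdh9 promoter: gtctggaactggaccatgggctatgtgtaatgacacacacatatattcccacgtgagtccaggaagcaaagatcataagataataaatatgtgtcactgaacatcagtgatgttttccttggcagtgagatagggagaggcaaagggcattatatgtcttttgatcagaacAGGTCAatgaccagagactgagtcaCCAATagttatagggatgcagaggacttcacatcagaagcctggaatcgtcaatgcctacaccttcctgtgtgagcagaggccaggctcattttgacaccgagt
Rdh16 promoter: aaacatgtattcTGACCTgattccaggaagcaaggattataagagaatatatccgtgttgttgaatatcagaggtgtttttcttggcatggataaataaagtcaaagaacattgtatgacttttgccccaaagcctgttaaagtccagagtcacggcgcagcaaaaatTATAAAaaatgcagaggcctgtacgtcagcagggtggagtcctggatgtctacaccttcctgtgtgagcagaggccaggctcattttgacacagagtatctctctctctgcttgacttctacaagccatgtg
The windows were 77.8% identical over 261 aligned bases. CCAAT stands 54 bases before the start site in the Rdh9 window alone, and TATAAA stands 82 bases before it in the Rdh16 window alone.

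Rdh5, known as the 11-cis retinol dehydrogenase of the eye, was at 3.03, 5.90 and 4.17 CPM in Acss2-KO, against 10.9, 8.94 and 9.19 CPM in WT. The groups do not overlap (log2 fold change -1.02, SE 0.23, adjusted p = 0.00935), and with a pseudocount of 5 the value was -0.66. Exons of Rdh5 overlap Bloc1s1 on the same strand, with 17.3% of its windows shared. Rdh10, the main retinol dehydrogenase of the embryo, was at 13.6, 19.2 and 18.6 CPM in Acss2-KO, against 22.8, 20.7 and 16.6 CPM in WT, with overlap (log2 fold change -0.21, 95% interval -0.66 to 0.23, adjusted p = 0.412).

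Several members are retinaldehyde reductases, which run the reverse reaction. Dhrs3, a retinaldehyde reductase known to be induced by retinoic acid (chr4:144892827-144928209), was at 36.0, 45.6 and 30.3 CPM in Acss2-KO libraries 1, 2 and 3, against 117, 115 and 71.0 CPM in WT libraries 1, 2 and 3. The highest Acss2-KO library lay well below the lowest WT library (log2 fold change -1.40, SE 0.24, adjusted p = 0.00371). Dhrs4, a peroxisomal carbonyl and retinaldehyde reductase, was at 109, 138 and 120.3 CPM in Acss2-KO, against 198, 176 and 182 CPM in WT (log2 fold change -0.60, SE 0.18, adjusted p = 0.0279). The Dhrs4 call was lost without Acss2-KO library 1 (0.0774) or 3 (0.106), without WT library 1 (0.104) or 2 (0.0717), under a block on replicate number (0.0528), and with median-of-ratios scaling (0.0501) and quantile normalization (0.0628).

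Rdh11, a microsomal retinaldehyde reductase, was at 13.2, 18 and 18.3 CPM in Acss2-KO, against 22.9, 30.3 and 34.5 CPM in WT (log2 fold change -0.79, SE 0.21, adjusted p = 0.0184). It lost its call without Acss2-KO library 1 (0.0555), WT library 2 (0.0564) or WT library 3 (0.0592). Rdh14, a related reductase, averaged 21.4 ± 1.85 CPM in Acss2-KO and 23.5 ± 4.40 CPM in WT (adjusted p = 0.627). Rdh13, a mitochondrial relative, was the member with the highest positive value: 35.0, 10.2 and 18.5 CPM in Acss2-KO libraries 1, 2 and 3, against 12.9, 10.8 and 11.4 CPM in WT libraries 1, 2 and 3. Its Acss2-KO libraries disagree, and library 2 lies below all WT libraries, so the log2 fold change of 0.65 (SE 0.37) did not pass (adjusted p = 0.201, and 0.0113 without Acss2-KO library 2). Exons of Rdh13 overlap another annotated gene on the same strand.

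**Figure D2:**
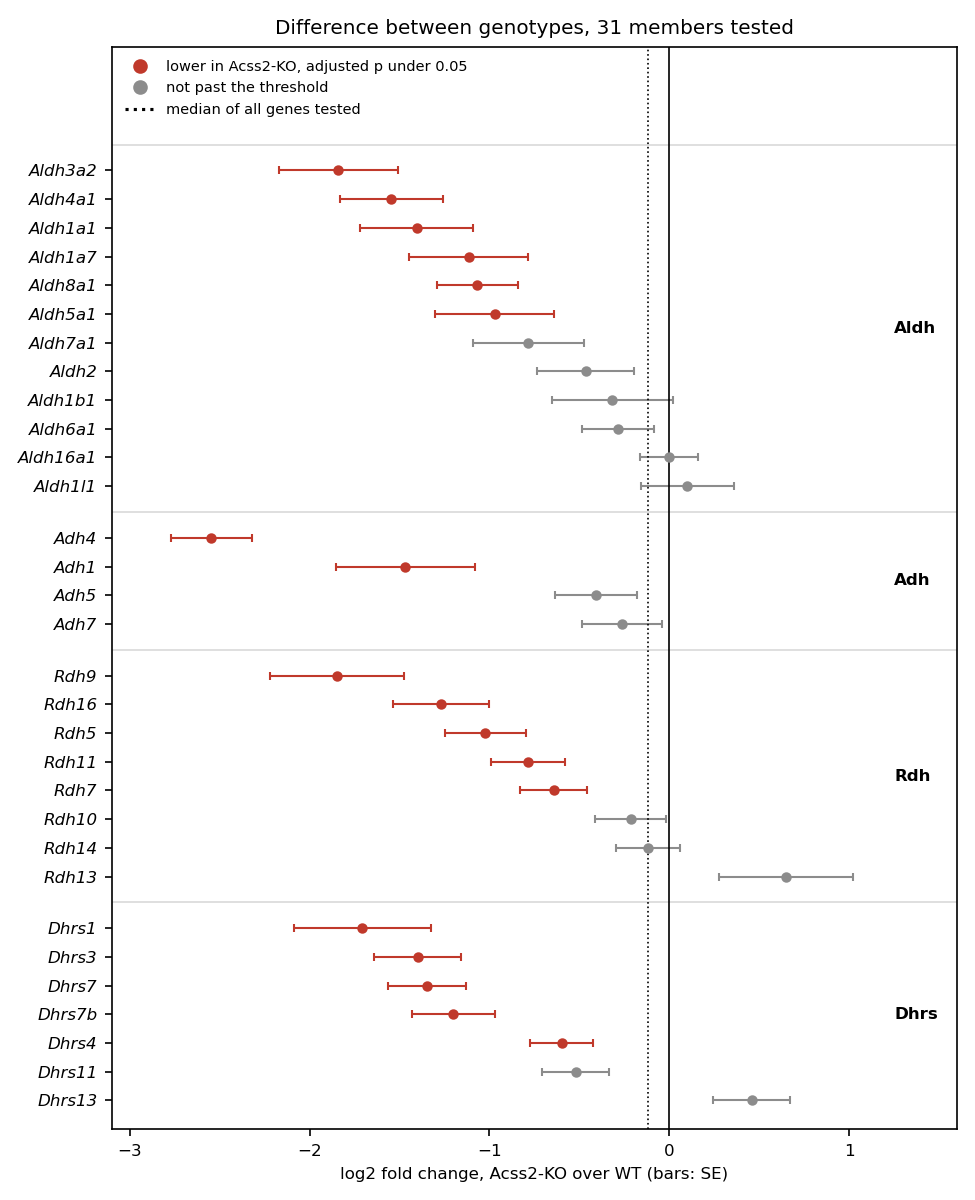
Log2 fold change of Acss2-KO over WT with its SE for the 31 members tested, by family, red where lower at a limma adjusted p under 0.05. The dotted line is the median of all genes tested (-0.12). The points reach from -2.55 for Adh4 to 0.65 for Rdh13, and no point to the right of 0 is red.

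The oxidation of retinaldehyde to retinoic acid rests in liver mainly on Aldh1a1, a cytosolic enzyme (chr19:20601961-20643462). It was at 410.2, 1017 and 680.3 CPM in Acss2-KO libraries 1, 2 and 3, against 1585, 1820.3 and 1833 CPM in WT libraries 1, 2 and 3. The Acss2-KO values spread widely around a mean of 702 ± 304 CPM, all below the WT mean of 1746 ± 140 CPM (log2 fold change -1.41, SE 0.31, adjusted p = 0.00974). Aldh1a7, its rodent paralogue (chr19:20692953-20727562), was at 67.2, 177 and 109.9 CPM in Acss2-KO, against 194, 246 and 284 CPM in WT (log2 fold change -1.12, SE 0.33, adjusted p = 0.0289). Within Acss2-KO both genes had the order library 1, library 3, library 2. Aldh1a7 lost its call without Acss2-KO library 1 (0.067) or 3 (0.0846), without WT library 2 (0.0763) or 3 (0.109), and with upper-quartile scaling (0.0512) and quantile normalization (0.0533). The coding sequences were 92.0% identical over 1504 bases, and 7.53% of the 50-base windows of Aldh1a1 occurred in Aldh1a7, so a small part of their reads could be exchanged.

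Both promoters are shown because the pair fell together and the windows are alike (GRCm38.p6, Aldh1a1 chr19:20601718-20602017, plus strand, and Aldh1a7 chr19:20727507-20727806, minus strand). Capitals mark CCAAT and TATAAA.
Aldh1a1 promoter: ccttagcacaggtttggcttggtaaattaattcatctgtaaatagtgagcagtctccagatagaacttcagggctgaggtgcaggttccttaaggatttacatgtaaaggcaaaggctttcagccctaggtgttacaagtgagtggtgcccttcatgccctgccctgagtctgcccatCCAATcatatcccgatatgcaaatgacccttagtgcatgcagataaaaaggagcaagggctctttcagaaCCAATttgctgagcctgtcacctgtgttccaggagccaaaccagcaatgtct
Aldh1a7 promoter: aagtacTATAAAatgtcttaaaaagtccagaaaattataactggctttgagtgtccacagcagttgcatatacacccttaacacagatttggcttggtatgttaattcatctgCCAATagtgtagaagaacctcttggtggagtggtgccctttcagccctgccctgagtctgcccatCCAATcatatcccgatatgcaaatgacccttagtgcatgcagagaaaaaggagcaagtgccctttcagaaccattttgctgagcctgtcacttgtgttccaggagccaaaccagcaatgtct
Over 282 aligned bases they were 79.4% identical. Both hold CCAAT 72 bases before the start site. A further CCAAT stands 2 bases before it in Aldh1a1 and 137 bases before it in Aldh1a7, which also holds TATAAA 244 bases before it.

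Over the 29 members with a RefSeq promoter, CCAAT was present in 15 (51.7%, against 37.9% of 27025 promoters of this length, both strands). AGGTCA was present in 5 (17.2%, against 16.0%), TATAAA in 3 (10.3%, against 14.2%) and TTNNGCAA, a C/EBP motif, in 4 (13.8%, against 10.8%). The HNF4 motif CAAAGTCCA was in none (0.477% of all promoters). These are letter matches and say nothing of binding.

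Aldh8a1, a retinaldehyde dehydrogenase that also acts in tryptophan breakdown (chr10:21377291-21396585), was at 115, 194 and 144 CPM in Acss2-KO libraries 1, 2 and 3, against 319.6, 326 and 286 CPM in WT libraries 1, 2 and 3. The groups do not overlap (log2 fold change -1.07, SE 0.22, adjusted p = 0.0077).

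Aldehydes from ethanol and lipids are handled by Aldh2, Aldh1b1 and the Aldh3 enzymes, described in turn. Aldh3a2, the microsomal fatty aldehyde dehydrogenase (chr11:61223417-61267464), fell most among the Aldh genes: 258, 630.3 and 396 CPM in Acss2-KO libraries 1, 2 and 3, against 1641, 1652 and 1098 CPM in WT libraries 1, 2 and 3. The log2 fold change was -1.84 (SE 0.33, adjusted p = 0.0043), with no overlap. Aldh2, the mitochondrial enzyme that oxidises acetaldehyde to acetate (chr5:121566027-121593824), was at 1333, 1585 and 1389 CPM in Acss2-KO, against 2452, 2402 and 1314 CPM in WT. WT library 3 lies below all Acss2-KO libraries, and the log2 fold change of -0.47 did not pass (95% interval -1.08 to 0.15, adjusted p = 0.204). Without that library the adjusted p was 0.021 and the value -0.76.

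Aldh1b1, a mitochondrial relative of Aldh2, was at 17.5, 44.0 and 23.3 CPM in Acss2-KO, against 32.2, 44.0 and 25.1 CPM in WT (adjusted p = 0.483). Aldh3a1, an inducible enzyme best known from cornea, was at 6.23 CPM in Acss2-KO library 1 and listed at 0 in the other 5 libraries. Aldh3b1, a membrane-bound enzyme for lipid aldehydes, was listed at 0 throughout Acss2-KO and was at 1.39, 2.41 and 2.01 CPM in WT. Neither reached the filter, and nor did Aldh18a1, the proline-forming pyrroline carboxylate synthase, which was listed at 0 in all but WT library 1 (1.01 CPM) and WT library 2 (2.35 CPM).

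Aldehyde dehydrogenases of amino acid breakdown were lower for proline and GABA, while those for valine and lysine did not pass. Aldh4a1, the mitochondrial pyrroline carboxylate dehydrogenase of proline breakdown (chr4:139622866-139649690), was at 77.2, 122 and 67.2 CPM in Acss2-KO libraries 1, 2 and 3, against 302, 296 and 179.8 CPM in WT libraries 1, 2 and 3 (log2 fold change -1.55, SE 0.29, adjusted p = 0.00475). Aldh5a1, the succinic semialdehyde dehydrogenase, was at 27.1, 67.6 and 39.4 CPM in Acss2-KO, against 98.4, 95.7 and 60.1 CPM in WT. The groups overlap, and its log2 fold change of -0.97 (SE 0.33) lay at the threshold (adjusted p = 0.0489). The Aldh5a1 call was lost in 12 of 17 alternatives, among them without Acss2-KO library 1 (0.131) or 3 (0.134), without WT library 1 (0.14), 2 (0.141) or 3 (0.0561) and with median-of-ratios scaling (0.0671). With Acss2-KO library 1 and WT library 2 both left out its value was -0.57.

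Aldh7a1, the lysine-breakdown enzyme for aminoadipic semialdehyde, was at 212, 461 and 311 CPM in Acss2-KO, against 613, 630.4 and 405 CPM in WT (log2 fold change -0.78, adjusted p = 0.0751). It passed without Acss2-KO library 2 (0.0157) and under a block on replicate number (0.046), and its exons overlap Phax on the opposite strand. Aldh6a1, the methylmalonate semialdehyde dehydrogenase of valine breakdown, was at 304, 365 and 383 CPM in Acss2-KO, against 458, 461 and 365 CPM in WT (log2 fold change -0.29, 95% interval -0.74 to 0.17, adjusted p = 0.284). Aldh1l1, the cytosolic formyltetrahydrofolate dehydrogenase, was at 458, 765 and 519 CPM in Acss2-KO, against 545, 644 and 422 CPM in WT (log2 fold change 0.10, 95% interval -0.49 to 0.69, adjusted p = 0.784). Aldh16a1 averaged 69.8 ± 6.83 CPM in Acss2-KO and 69.6 ± 4.23 CPM in WT, with a 95% interval of the log2 fold change from -0.36 to 0.36. These intervals leave room for moderate differences in each gene.

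Among the other Dhrs genes, whose substrates are less well known, Dhrs1 (chr14:55739020-55745690) was at 32.9, 110.7 and 64.9 CPM in Acss2-KO libraries 1, 2 and 3, against 201, 226 and 189 CPM in WT libraries 1, 2 and 3. The Acss2-KO libraries spread widely below WT (log2 fold change -1.71, SE 0.38, adjusted p = 0.0112). Dhrs7 was at 11.6, 16.1 and 11.1 CPM in Acss2-KO, against 38.3, 38.9 and 26.2 CPM in WT (log2 fold change -1.35, SE 0.22, adjusted p = 0.00284). Dhrs7b, a peroxisomal enzyme of ether lipid synthesis, was at 8.06, 16.0 and 11.5 CPM in Acss2-KO, against 25.8, 28.1 and 29.0 CPM in WT (log2 fold change -1.20, SE 0.23, adjusted p = 0.00544). Neither gene's groups overlap. Dhrs11 averaged 15.7 ± 3.13 CPM in Acss2-KO and 22.8 ± 2.30 CPM in WT (adjusted p = 0.0534, and 0.0151 without Acss2-KO library 2). Dhrs13 averaged 7.93 ± 1.96 CPM in Acss2-KO and 5.44 ± 0.931 CPM in WT (adjusted p = 0.122, and 0.034 with quantile normalization).

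Levels can be set side by side per length. Per kb of the longest annotated transcript, the leading members in Acss2-KO were Rdh7 (432 ± 36.3 CPM per kb), Adh1 (389 ± 211), Aldh2 (371 ± 34.2) and Aldh1a1 (342 ± 148), whose spreads overlap. In WT they were Adh1 (978 ± 160 CPM per kb), Aldh1a1 (850.5 ± 68.1), Rdh7 (673 ± 37) and Aldh2 (532 ± 166). Of the WT neighbours, Adh1 and Aldh1a1 overlap in their spread, as do Rdh7 and Aldh2. The transcript used in liver may be shorter than the one used here.

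Several members are neighbours in the genome, and their values can be read side by side. The Adh cluster spans 238 kb of chromosome 3, with Adh7, Adh1, Adh4 and Adh5 in that order. Adh6-ps1, a transcribed pseudogene next to Adh4, was at 1.51, 6.45 and 3.34 CPM in Acss2-KO, against 20.5, 16.6 and 25.3 CPM in WT (log2 fold change -2.31), and it passed the filter through its WT level alone. The antisense transcript 0610031O16Rik, whose span covers Adh7, fell (-1.70, SE 0.31, adjusted p = 0.00467). Metap1, the next listed gene beyond Adh5, averaged 40.7 ± 3.70 CPM in Acss2-KO and 31.6 ± 2.23 CPM in WT (log2 fold change 0.35, adjusted p = 0.105). In the Rdh cluster, 112 kb of chromosome 10, Rdh9, Rdh16 and Rdh7 all fell. BC089597, listed between Rdh16 and Rdh7, overlapped between the groups and did not pass (log2 fold change -0.96, adjusted p = 0.0851). The adjacent Sdr9c7, a short-chain dehydrogenase outside the families by symbol, was at 1.33, 8.57 and 2.93 CPM in Acss2-KO, against 40.2, 47.2 and 55.7 CPM in WT (log2 fold change -3.44). It too passed the filter through its WT level alone. The gene on the other side, Gpr182, a receptor of endothelial cells, also fell (log2 fold change -0.95, adjusted p = 0.009). Around Aldh1a1 and Aldh1a7 the flanking genes did not pass: Anxa1 at 0.42 (adjusted p = 0.401) and Zfand5 at -0.20 (0.317). Beside Aldh3a2, the transporter gene Slc47a1 fell (-1.57, adjusted p = 0.0112).

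**Figure D3:**
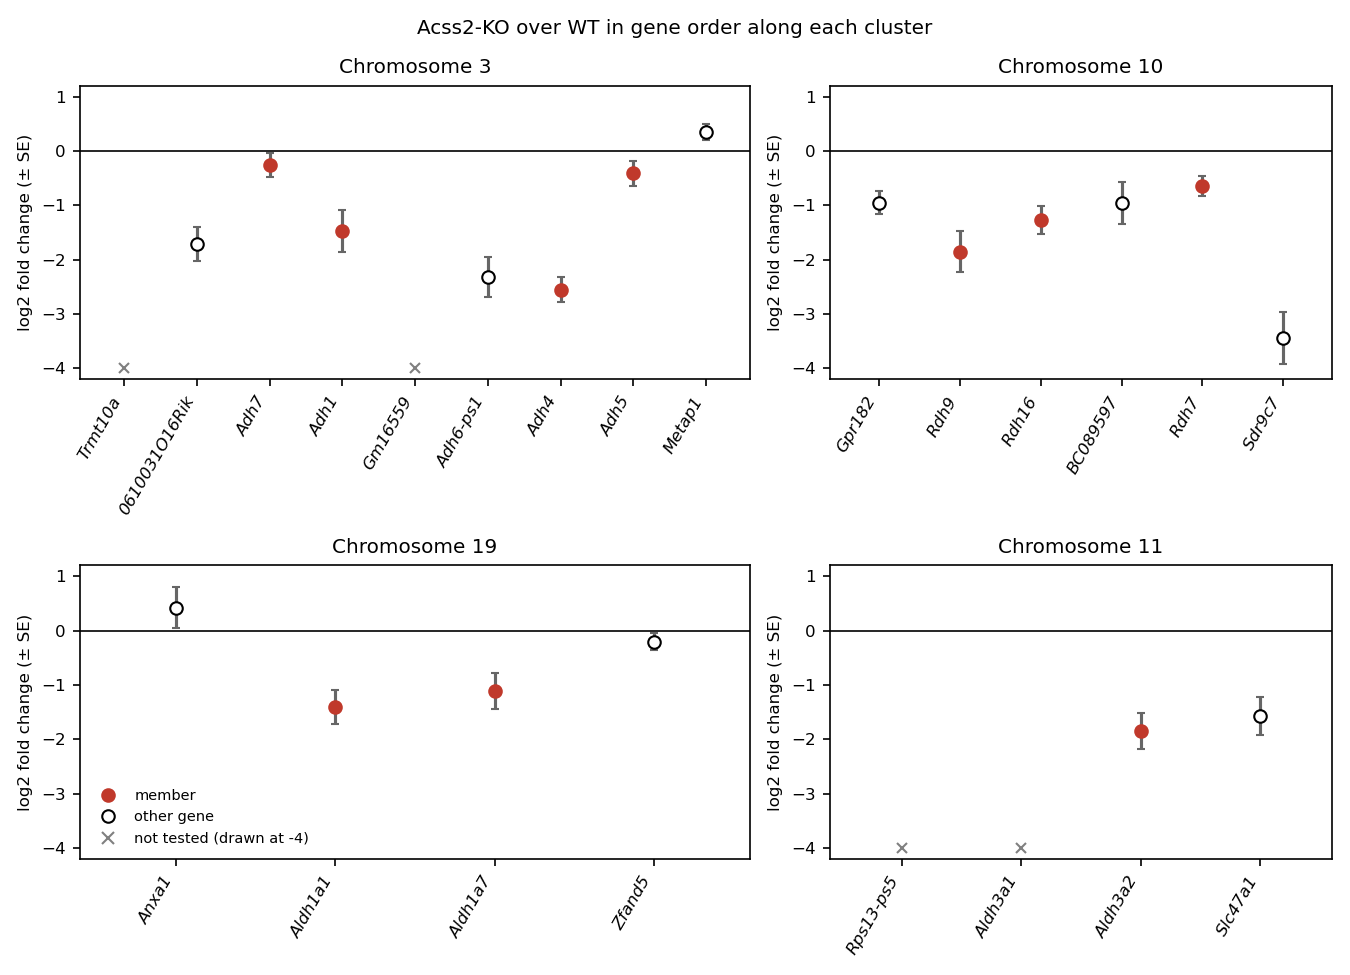
Log2 fold change of Acss2-KO over WT (± SE) for members (filled) and the other listed genes of 4 clusters (open), in gene order with 1 listed gene on each side. Crosses at the foot of a panel mark genes below the filter. In the Adh cluster the values reach -2.55 at Adh4 and return to -0.41 at Adh5, and in the Rdh cluster each of the 3 members is below 0.

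The Acss2-KO libraries differed in how far the members lay below WT. Acss2-KO library 1 had the lowest value of its group for 23 of the 31 tested members, and library 2 the highest for 25. Relative to the WT mean, the median difference over the members was -1.34, -0.50 and -0.79 on the log2(CPM + 1) scale in Acss2-KO libraries 1, 2 and 3. Over all genes tested it was -0.14, -0.14 and -0.07 in the same libraries, but rises and falls cancel in such a median. The order of the libraries was not particular to the members. Over all genes tested, correlations with the WT libraries were 0.787 to 0.805 for Acss2-KO library 1. They were 0.887 to 0.923 for library 2, the nearest to WT, and 0.837 to 0.86 for library 3. In WT, library 3 was the lowest of its group for 17 of 31 members.

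**Figure D4:**
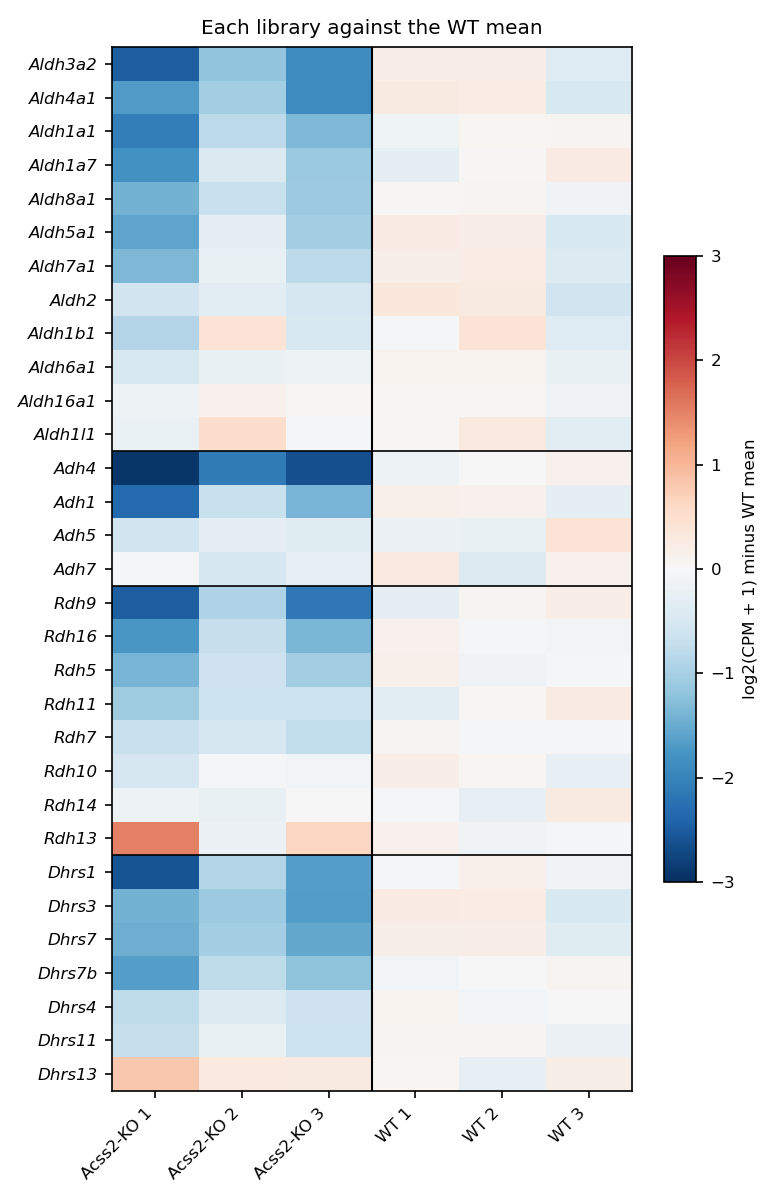
Difference of each library from the WT mean on the log2(CPM + 1) scale for the 31 tested members, Acss2-KO libraries left of WT libraries, blue for lower and red for higher. The columns of Acss2-KO libraries 1 and 3 are darker than that of library 2, whose median difference was -0.50.

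Of 24 tested genes of retinoid storage, transport, breakdown and receptors, 4 rose (16.7%, against 13.4% of all genes tested) and 5 fell (20.8%, against 23.1%), so that both shares were near those over all genes. The median log2 fold change was -0.39. The number lower was 8 without Acss2-KO library 2, 3 without WT library 1 or 2, and 2 at a minimum mean of 20 CPM, where Lrat and Bco2, which passed the filter of 5 CPM through WT alone, were not tested. Lrat, the enzyme that stores retinol as esters in stellate cells, was at 4.99, 5.03 and 3.89 CPM in Acss2-KO, against 14.1, 22.6 and 20.4 CPM in WT (log2 fold change -1.81, SE 0.21, adjusted p = 0.000783). Beside it, 2 of 8 tested stellate markers fell (25.0%, against 23.1% of all genes tested), Lrat itself and Colec11 (named after its values were seen). That share was near the one over all genes, and the summed ranges given above overlap. Ttr, the plasma carrier that binds retinol-binding protein, averaged 1260.2 ± 391 CPM in Acss2-KO and 4260.2 ± 45 CPM in WT (log2 fold change -1.80, SE 0.24). Bco2, a carotenoid-cleaving enzyme, averaged 4.88 ± 2.24 CPM in Acss2-KO and 19.5 ± 1.83 CPM in WT (-1.86, SE 0.25). Cyp26b1, which breaks down retinoic acid, rose to 112, 55.3 and 85.6 CPM in Acss2-KO, against 16.6, 27.5 and 16.1 CPM in WT (log2 fold change 2.0, SE 0.29, adjusted p = 0.0019). Nrip1, a corepressor of nuclear receptors (1.26, SE 0.25), and Dgat1, an acyltransferase that can also esterify retinol (0.92, SE 0.20), rose too. Rbp4, the retinol-binding protein of plasma, averaged 6489 ± 181 CPM in Acss2-KO and 4740.1 ± 699 CPM in WT and did not pass (adjusted p = 0.102).

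In ethanol and acetate handling, 7 of 11 tested genes fell (63.6%, against 23.1% of all genes tested), 1 of them the deleted gene Acss2, and 3 rose (27.3%, against 13.4%). Cyp2e1, the microsomal ethanol oxidase, averaged 6465 ± 1974 CPM in Acss2-KO and 13333 ± 2350 CPM in WT (log2 fold change -1.07, SE 0.27, adjusted p = 0.015), a call lost without Acss2-KO library 3 (0.0688), WT library 1 (0.0539) or WT library 2 (0.0558). Slc16a1, a carrier of monocarboxylates (1.12, SE 0.19, adjusted p = 0.0037), Acot8, a peroxisomal thioesterase (0.57, SE 0.15, adjusted p = 0.0186), and Acot12, a cytosolic acetyl-CoA hydrolase (0.59, SE 0.20, adjusted p = 0.044), rose. The Acot12 call was lost without any 1 of the 6 libraries (0.0542 to 0.175) and under a block on replicate number (0.0741), and the Acot8 call without Acss2-KO library 3 (0.0851), WT library 1 (0.0618) or WT library 2 (0.0541). Several calls rested on single libraries: 2 of 11 were lower without Acss2-KO library 3, WT library 1 or WT library 2, and 3 without WT library 3 or 4 without Acss2-KO library 1. The 3 higher calls became 1, that of Slc16a1, without Acss2-KO library 3, WT library 1 or WT library 2.

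**Figure D5:**
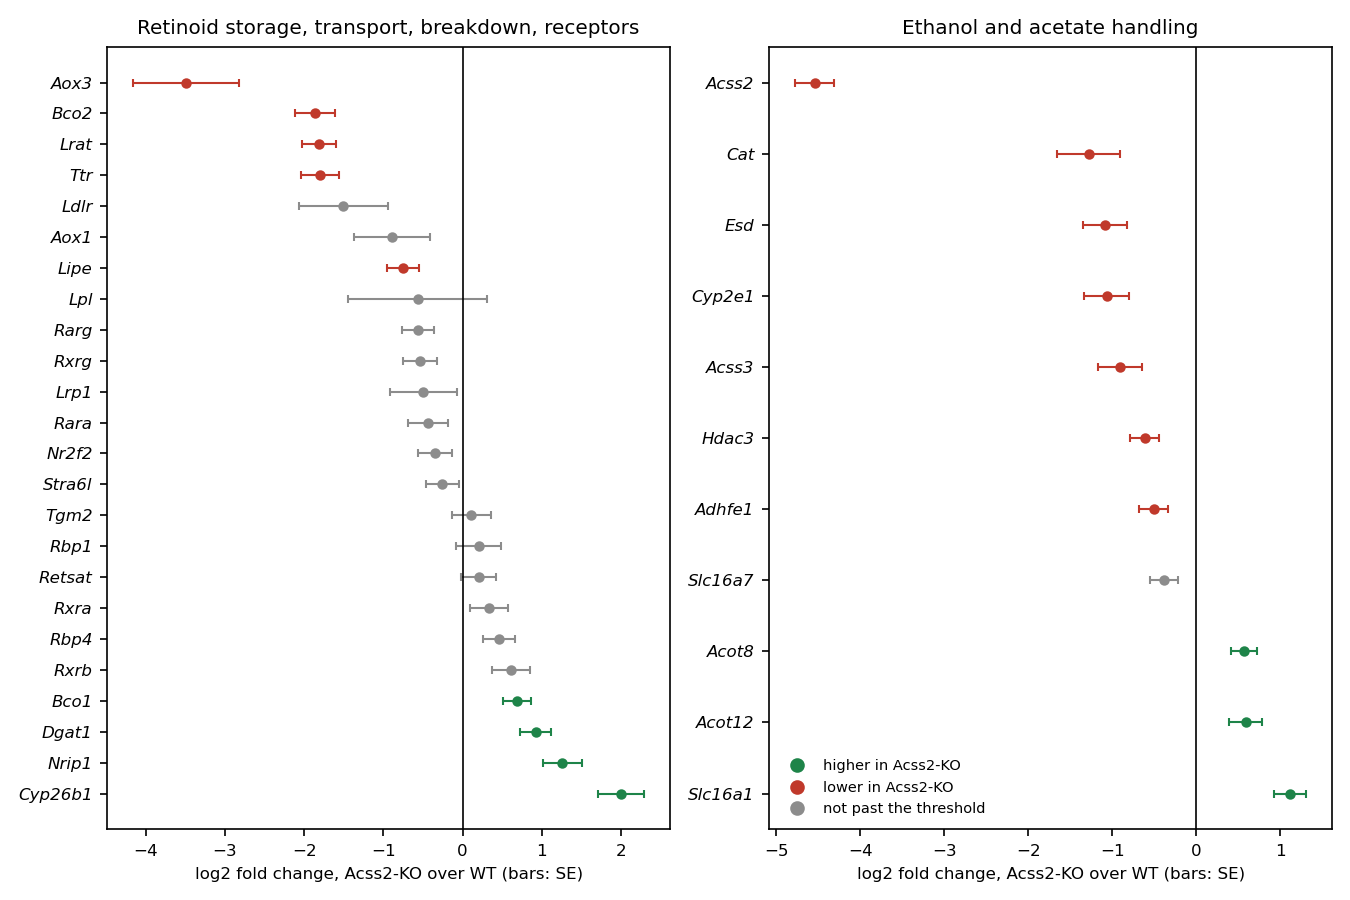
Log2 fold change of Acss2-KO over WT with its SE for tested genes of retinoid storage, transport, breakdown and receptors (left) and of ethanol and acetate handling (right), green where higher and red where lower at a limma adjusted p under 0.05. Points lie on both sides of 0, with Lrat at -1.81 and Cyp26b1 at 2.0.

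Enzymes next to an aldehyde dehydrogenase in its pathway were lower in 12 of 31 tested genes (38.7%, against 23.1% of all genes tested) and higher in 3 (9.68%, against 13.4%), with a median log2 fold change of -0.62. The lower count was 6 without Acss2-KO library 3, 18 without Acss2-KO library 2 and 14 under a block on replicate number. Oat, which feeds the proline pathway of Aldh4a1, averaged 918 ± 276 CPM in Acss2-KO and 2756 ± 417 CPM in WT (log2 fold change -1.62, SE 0.26). Pycrl, a reductase that forms proline, averaged 9.98 ± 5.81 CPM in Acss2-KO and 32.3 ± 4.78 CPM in WT (-1.73, SE 0.35). On the lysine path that holds Aldh7a1, Aass and Aadat ran the other way, and Dhtkd1 did not pass (log2 fold change 0.22, adjusted p = 0.4). Aass, which opens lysine breakdown, was at 2210.3, 1351 and 1574 CPM in Acss2-KO, against 372, 362 and 271 CPM in WT (log2 fold change 2.33, SE 0.25, adjusted p = 0.000602). Aadat, the aminoadipate aminotransferase, was higher (0.65, SE 0.21, adjusted p = 0.0412) and lost its call without Acss2-KO library 2 (0.0568) or 3 (0.172) or WT library 1 (0.116), 2 (0.112) or 3 (0.0632). Around Aldh8a1 in tryptophan breakdown, Acmsd rose (37.6 ± 13.3 CPM in Acss2-KO and 4.02 ± 0.670 CPM in WT, log2 fold change 2.89, SE 0.27) and Haao fell (-1.55, SE 0.26). Acmsd passed the filter through its Acss2-KO level alone.

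Hydroxysteroid dehydrogenases and other short-chain relatives of the Rdh and Dhrs genes were lower in 5 of 18 tested (27.8%, against 23.1% of all genes tested) and higher in 2 (11.1%, against 13.4%), again near the shares over all genes (median log2 fold change -0.48). The number lower was 10 without Acss2-KO library 2 and 3 without Acss2-KO library 3, WT library 1 or WT library 2. Hsd17b6, a hydroxysteroid and retinol dehydrogenase, averaged 16.1 ± 6.02 CPM in Acss2-KO and 128 ± 43.4 CPM in WT (-2.93, SE 0.32). Hsd17b12, an enzyme of fatty acid elongation (-1.77, SE 0.26), and Hsd11b1, which activates glucocorticoids (-1.70, SE 0.25), fell. Hsd17b13, a lipid droplet protein (0.76, SE 0.20, adjusted p = 0.0194), and Hsd17b7, of cholesterol synthesis (0.69, SE 0.20, adjusted p = 0.0267), rose. Both of these lost their calls without Acss2-KO library 3 (0.0947 and 0.101), WT library 1 (0.0516 and 0.103) or WT library 2 (0.0934 and 0.074), and Hsd17b7 also without Acss2-KO library 1 (0.0767).

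In the authors' deposited table, 13 of the 34 members have a negative and 2 a positive log2 fold change past an adjusted p of 0.05. Of the 13, 12 also fell in the fit reported here, and the other is Aldh3b1. The rest of the 18 members that fell here did not pass in the authors' test. Their adjusted p there was 0.052 for Aldh8a1, 0.055 for Aldh1a7, 0.11 for Aldh5a1, 0.15 for Rdh11, 0.34 for Rdh7 and 0.39 for Dhrs4. The positive ones in the authors' deposited table are Rdh13 (1.01, adjusted p = 0.025) and Aldh3a1 (5.87, adjusted p = 5e-18), the gene seen in 1 Acss2-KO library alone.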

How the data were processed

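Total liver RNA went through a TruSeq kit, per the labels' protocols. The authors deposited log2 CPM per gene and library, rounded to 2 decimals, with values below 1 CPM listed at 0, as the values themselves show: each column, put back on the linear scale, sums to between 997061 and 997856 CPM. The deposited table also holds p-values, raw and adjusted, and log2 fold changes from a test by the authors whose tool is not stated. A deposited whole-number score per genotype, whose making the authors do not describe, was not used. The submitters' processing notes name mm8 and Bowtie 0.12.2 without saying what each was for. Counter, annotation and strand setting are not stated. Coordinates are taken as GRCm38, since the starts of 11621 genes differ from GRCm38.p6 by a median of 8 bp.

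Deposited values were turned into CPM, a listed 0 set to 1 CPM, and log2(CPM + 1) was tested in limma 3.58.1 (R 4.3.3, statmod 1.5.0, trended, robust empirical Bayes, no covariates). No fold is given for members below the filter. Depth was estimated from the steps between low values. Whole reads could not be recovered at higher values, so no count model was run. The procedure was also run on simulated libraries, drawn gene by gene with the same dispersion for all genes. That run does not cover differences between libraries that many genes share, such as those among the Acss2-KO libraries. Window sharing, coding identity (Biopython 1.88) and transcript lengths used GENCODE vM1 transcripts; promoters are RefSeq's, found for 29 of 34 members. The members and lists were chosen with earlier results of these data known. All members are named; from each list the 3 genes with the smallest p in each direction, and genes needed beside a member, are named. Members at most 150 kb apart formed a cluster, described with the next listed gene on each side. 1 gene that the symbol pattern also matches is not reported here.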

Additional observations from a re-analysis of the deposited data

How the results depend on the processing

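Under 17 alternatives, 12 of the 18 members that fell kept their call in each: Adh4, Aldh1a1, Aldh3a2, Aldh4a1, Aldh8a1, Dhrs1, Dhrs3, Dhrs7, Dhrs7b, Rdh5, Rdh9 and Rdh16 (Dhrs7b, Rdh5 and Rdh9 were not tested at a minimum of 20 CPM). Members lower ranged from 12 to 20, and members higher from 0 to 1, with each library left out in turn. Members higher numbered 1 with quantile normalization. Over all genes tested, 525 to 1616 were higher and 1192 to 2381 lower with each library left out. At a minimum mean of 20 CPM, where fewer genes were tested, 741 were higher and 1112 lower. With WT library 2 and Acss2-KO library 1 left out together, 702 were higher and 1291 lower; the cause was not tested. The balance of calls over all genes, 1252 higher and 2161 lower, moved with scaling, with median-of-ratios scaling giving 1684 higher and 1774 lower, upper-quartile scaling 1622 and 1815, and quantile normalization 1816 and 1640, while the median log2 fold change over all genes went to -0.01, -0.04 and 0.02 and the members' median to -0.68, -0.71 and -0.68 in that order. With each library left out, Aldh1l1 ranged from -0.12 to 0.25 and Rdh14 from -0.24 to 0.017, turning sign without Acss2-KO library 2 (-0.12) or WT library 3 (-0.06, Aldh1l1) and without WT library 3 (Rdh14). The sign also turned for Aldh1b1 without WT library 2 and Acss2-KO library 1 (0.17). The replicate number as a block gave 17 members lower and 0 higher, 1260 genes higher and 2137 lower over all. It ended the calls of Dhrs4 and Rdh7 and gave one to Aldh7a1. Same-numbered libraries deviated together at correlations of -0.10, -0.14 and 0.09, and differently numbered ones at -0.146 to 0.175. With 3 libraries per genotype, these values cannot decide whether the numbers pair the samples. Members at a few CPM rest on few reads per library.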
